A study of Mus musculus with 12 samples.

Results

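The genes described here are 10 that carry long-chain fatty acids into the cardiomyocyte and break them down in its mitochondria: *Cd36*, *Fabp3*, *Cpt1a*, *Cpt1b*, *Cpt2*, *Acadl*, *Acadm*, *Acadvl*, *Hadha* and *Hadhb*. They were listed by symbol, and all 10 were found by Ensembl identifier among the 48526 genes counted in each of 12 RNA-seq libraries. Purkinje cells (PCs) of the ventricular conduction system and working ventricular myocytes (VMs) were sorted from hearts of adult male mice that were wild type for *Ncam-1* (WT) or constitutive *Ncam-1* knockouts (KO), the gene for neural cell adhesion molecule 1. All 4 groups, WT PC, KO PC, WT VM and KO VM, carried the *Cntn2*-EGFP transgene, a bacterial artificial chromosome reporter that labels PCs, and all cells were loaded with TMRM (50 nM), which collects in energized mitochondria and so marked the cardiomyocytes. PCs were taken as cells with both signals and VMs as cells with the dye alone. Each group held 3 libraries, and the exact age and the number of hearts behind a library were not given in the sources used here, so the p-values measure the spread between these libraries. The reporter line was kept on a CD1 and the KO allele on a C57BL/6 background, and the background of each library was not given.

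The working heart draws most of its energy from fatty acids. *Cd36* encodes the membrane translocase for long-chain fatty acids and *Fabp3* the heart fatty acid binding protein that carries them through the cytosol. Carnitine palmitoyltransferase 1, in a liver form (*Cpt1a*) and a muscle form (*Cpt1b*), transfers the activated fatty acid to carnitine at the outer mitochondrial membrane, which is the controlled step of entry, and *Cpt2* reverses the transfer inside. Inside the mitochondrion, acyl-CoA dehydrogenases for very long (*Acadvl*), long (*Acadl*) and medium (*Acadm*) chains catalyse the first step of each beta-oxidation cycle. *Hadha* and *Hadhb* encode the alpha and beta subunits of the mitochondrial trifunctional protein, which carries out the remaining steps for long chains.

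The *Hadha* and *Hadhb* genes lie head to head on chromosome 5. In the GENCODE M21 annotation of the GRCm38 build, *Hadha* (ENSMUSG00000025745) spans chr5:30118304-30155162 on the minus strand and *Hadhb* (ENSMUSG00000059447) spans chr5:30155248-30184593 on the plus strand. The 85 bases between them, chr5:30155163-30155247, separate the annotated gene bounds of a pair of genes whose products sit in 1 complex, and they are shown because the counts of these genes are set against each other below. The sequence, from RefSeq (GRCm38.p6), is given on the plus strand with the GC box GGGCGG in capitals.
Hadha-Hadhb gap: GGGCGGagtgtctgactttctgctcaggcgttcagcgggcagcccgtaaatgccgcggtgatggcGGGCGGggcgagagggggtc
The first GC box starts at base 1 and the other at base 66 of the gap. The RefSeq start sites used for the promoter windows lie elsewhere, at base 30154980 for *Hadha*, inside its GENCODE bounds, and at base 30155253 for *Hadhb*.

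The nuclear receptor hexamer AGGTCA, the core letters bound by PPAR, RXR and estrogen-related receptors, was searched on both strands in the RefSeq windows from 250 bases before to 50 after the start site, which were at hand for 9 of the 10 genes (*Cpt1b* had no entry). It was in 4 of the 9 windows (*Acadm*, *Acadvl*, *Cd36* and *Cpt1a*) and in 16.3% of all 32851 promoter windows. The spaced repeat AGGTCANAGGTCA was in none of the 9 and in 0.0396% of all windows, and the longer letters TCAAGGTCA, which contain the hexamer, were in none of the 9 and in 0.423% of all. GGGCGG was in 6 of the 9 and in 35.7% of all windows, and CCAAT in 2 of the 9 and in 37.4% of all. A match of letters is a description and not a site of binding. *Acadm* and *Acadvl*, 2 of the genes with the lowest unadjusted p-values between PCs and VMs, are shown with the hexamer in capitals, on the strand of the gene (RefSeq, GRCm38.p6, minus strand, chr3:153944644-153944893 and chr11:70015429-70015678).
Acadm upstream: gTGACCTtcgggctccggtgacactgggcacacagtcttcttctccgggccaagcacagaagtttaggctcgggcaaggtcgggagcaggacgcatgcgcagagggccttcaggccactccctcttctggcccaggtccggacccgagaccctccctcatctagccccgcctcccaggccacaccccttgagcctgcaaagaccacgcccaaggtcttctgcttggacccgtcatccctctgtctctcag
Acadvl upstream: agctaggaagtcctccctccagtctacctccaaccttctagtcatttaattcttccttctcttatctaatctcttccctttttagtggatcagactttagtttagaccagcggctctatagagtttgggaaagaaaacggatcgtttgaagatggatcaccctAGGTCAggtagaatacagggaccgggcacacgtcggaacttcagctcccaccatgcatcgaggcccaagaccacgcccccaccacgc
In *Acadm* the hexamer begins at base -249 from the start site on the opposite strand (TGACCT as printed), and in *Acadvl* at base -87 on the strand of the gene. *Hadhb* and *Cpt2* had no hexamer, with unadjusted edgeR p of 0.00151 and 0.0390 between PCs and VMs over both genotypes. *Cd36* and *Cpt1a* had it, with p of 0.306 and 0.974 in the same test. A link between the hexamer and the levels was not tested.

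The libraries held 13883427 to 42505705 read pairs counted on genes. Transcripts of the mitochondrial genome took 79.0% to 91.3% of these, which left 1532393 to 6761356 pairs on all other genes. WT PC replicate 2 stood apart, with 63.9% of its read pairs not aligned against 18.8% to 24.7% in the other 11, and results over both genotypes that changed when it was left out are given both ways. *Ncam1* was counted at 34 to 116 in the WT PC libraries, at 0 to 9 in the WT VM libraries and at 0 or 1 in the 6 KO libraries. *Cntn2*, which drives the reporter, was at 22 to 922 counts in PC libraries and at 2 to 7 in VM libraries. All 8 cardiomyocyte markers were at 4285 counts or more in every library. The defining adipocyte markers *Adipoq*, *Plin1*, *Lep*, *Cidec* and *Cfd* were at 0 in all 12 libraries, with 1 exception. That was 1 count of *Plin1* in a WT VM library. Adipocytes express *Cd36* and *Fabp4*, and a part of adipocytes in the counts of these genes was not tested. *Cd36* is also known from endothelial cells and macrophages, whose summed markers (below) were higher in PC than in VM libraries of each genotype. Their part in the counts of *Cd36* was not tested.

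Levels in the next paragraphs are normalized read counts, that is, counts divided by each library's TMM-scaled size and set to the mean size of the 12 libraries. For levels between genes they were divided by the length of the principal transcript in kb. *Fabp3* was the highest of the 10 in every group on this scale, at 3156 ± 492 in WT PC, 3802 ± 481 in KO PC, 3610 ± 509 in WT VM and 4149 ± 459 in KO VM (normalized counts per kb, SD, n = 3). *Acadm*, *Cd36*, *Hadhb* and *Acadl* followed in the WT VM libraries with means of 2865, 2342, 2203 and 2143 per kb, and the ranges of neighbours in this order overlapped. *Hadha* stood below them at 1607 per kb, and its highest WT VM library (1788) was under the lowest of those 4 genes. *Cpt2* (462 per kb), *Acadvl* (172) and *Cpt1a* (44.1) made up the low end, with no overlap between neighbours in WT VM. The order from *Hadha* down to *Cpt1a* was the same in all 4 groups. With the union of all annotated exons as the length, *Hadhb* moved below *Hadha* and *Acadm* below *Acadl* in every group, so the order among the middle genes depends on the length used.

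The counts of *Cpt1b* (ENSMUSG00000078937, chr15:89416405-89425863, minus strand), the muscle form of the entry enzyme, could not be read as its level. It had 4, 0 and 5 counts in WT PC, 1 in each KO PC library, 3, 4 and 1 in WT VM, and 2, 0 and 0 in KO VM. GENCODE M21 places a readthrough gene, *Gm44502*, on the same strand at chr15:89416405-89429696, and its exons cover 81.4% of the exonic bases of *Cpt1b*. *Gm44502* was not among the genes of the count tables, and the counting tool as run by default sets aside a read pair that lies in more than 1 gene. Which annotation release lay behind the counts was not settled, so it is not known whether a readthrough gene was part of it. Whether this took the reads of *Cpt1b* was not tested, and no ratio of the muscle to the liver form is given. *Cpt1b* fell under the filter on low counts in every comparison, so that 9 of the 10 genes were tested. Of these, *Acadvl* shares 42.9% of its exonic bases with *Dvl2* on the opposite strand (0 to 11 counts), *Fabp3* shares 9.84% with *Zcchc17* on the opposite strand (39 to 282 counts), and a processed pseudogene, *Fabp3-ps1*, had up to 254 counts. The counting setting for strand was not given, so the levels of *Fabp3* and *Acadvl* carry this uncertainty.

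**Figure D1:**
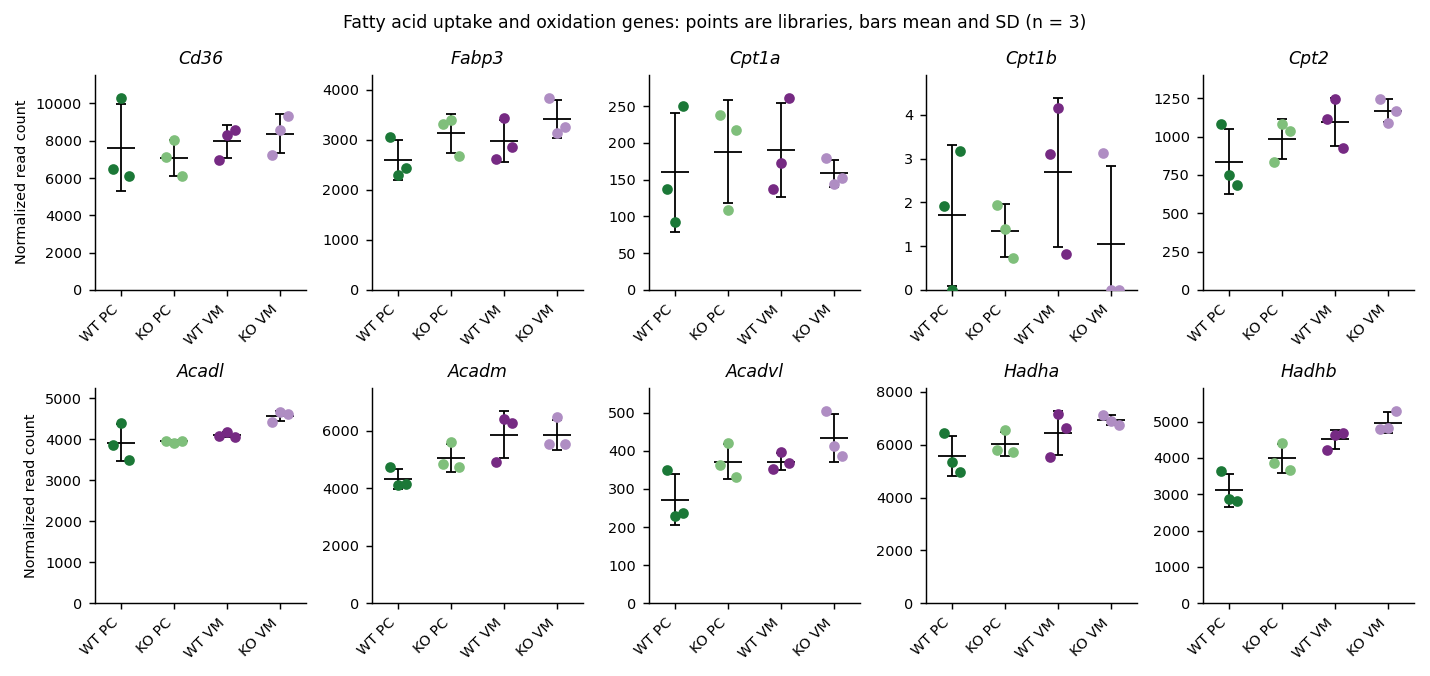
Normalized read count (vertical axis, from 0, a scale of its own in each panel) of the 10 genes in WT PC, KO PC, WT VM and KO VM; points are single libraries and bars the mean and SD of 3. *Hadhb* is the gene whose PC libraries lie below the VM libraries in both genotypes, and *Cpt1b* stays below 5 throughout.

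The first question was whether PCs and VMs of the same genotype differ in these transcripts. No gene of the 9 passed an adjusted p of 0.05, and their fitted levels were mostly lower in PCs. All 9 had lower fitted levels in WT PC than in WT VM, with a median log2 fold change of -0.26 against -0.003 over all 12035 genes tested. In the KO, 8 of the 9 were lower in PCs, with a median of -0.21 against 0.01 over 10887 genes. KO PC replicates 1 and 2 had summed Purkinje markers of 254 and 192 normalized counts, against 1055 in KO PC replicate 3 and 79.1 to 81.1 in KO VM, and the median was -0.16 without replicate 3, -0.18 without replicate 1 and -0.29 without replicate 2. Averaged over both genotypes, 8 of 9 were lower, with a median of -0.20 (-0.28 without WT PC replicate 2) against 0.02 over 11533 genes. Of all genes tested, 50.3%, 48.7% and 47.8% had lower levels in PCs in these comparisons. The levels of several of these genes vary together, so the genes are not independent of each other and these counts are a description.

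With edgeR's quasi-likelihood fit and p-values adjusted over all genes of the fit (Benjamini-Hochberg), 0 of the 9 were called in WT PC against WT VM, where 0.108% of all genes were, and DESeq2 and limma voom called 0 as well. At an unadjusted p under 0.05, 2 were lower in WT PC (*Acadm* and *Hadhb*), against 1.22% of all genes that were lower at that level. In KO PC against KO VM edgeR, DESeq2 and limma voom each called 0 of the 9, against 0.863% of all genes with edgeR, and 1 (*Hadhb*) was lower at an unadjusted p under 0.05, against 2.59% of all genes. Over both genotypes edgeR called 0 of the 9, against 1.48% of all genes, and 4 (*Cpt2*, *Acadm*, *Acadvl* and *Hadhb*) were lower at an unadjusted p under 0.05, against 2.78% of all genes. For this comparison DESeq2 (4% of all genes called) and limma voom (4.14%) each called 1 gene of the 9, *Hadhb*. The counts at an unadjusted p moved with single libraries, and so did those of all genes, from 759 in the WT to 320 without WT VM replicate 2, 324 without WT VM replicate 3, 1030 without WT PC replicate 3, 1263 without WT PC replicate 1 and 1273 without WT PC replicate 2. For the 9 genes the counts were as follows. In the WT they were 0 without WT PC replicate 3, WT VM replicate 2 or WT VM replicate 3, 4 without WT PC replicate 1 and 3 without WT PC replicate 2. In the KO they were 0 without KO PC replicate 1, KO PC replicate 3 or KO VM replicate 3, and 2 without KO PC replicate 2 or KO VM replicate 1. Over both genotypes they ran from 2 (without KO PC replicate 1, KO VM replicate 1, WT PC replicate 3 or WT VM replicate 2) to 6 (without WT PC replicate 1 or 2). The count of all genes in the KO was 1058, and ran from 799 (without KO VM replicate 3) to 1188 (without KO PC replicate 2). Over both genotypes that count was 1313, and ran from 1034 (without WT VM replicate 2) to 1881 (without WT PC replicate 1). It was 1712 without WT PC replicate 2.

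*Hadhb*, the beta subunit with the thiolase activity of the trifunctional protein, showed the largest difference of the 9 in the comparison over both genotypes. Its normalized counts were 3632, 2883 and 2819 in the WT PC libraries and 4223, 4635 and 4678 in the WT VM libraries. In the KO they were 3869, 4423 and 3668 in PC and 4798, 4822 and 5296 in VM. Every PC library was below every VM library of its genotype. The log2 fold change was -0.57 in the WT (SE 0.20, 95% interval -1.01 to -0.13, edgeR adjusted p = 0.679) and -0.32 in the KO (SE 0.13, interval -0.60 to -0.04, edgeR adjusted p = 0.410). Over both genotypes it was -0.43 (SE 0.11, interval -0.66 to -0.19, edgeR adjusted p = 0.0728), or 0.744 times the level in VMs. The adjusted p was 0.00783 with DESeq2 and 0.00325 with limma voom, 0.0213 with edgeR without WT PC replicate 1 (1.98% of all genes called) and 0.0287 without WT PC replicate 2 (3.68%), and lay between 0.0537 and 0.207 in the other alternatives. The exact permutation of cell type within genotype gave p = 0.005, two-sided and unadjusted, which is the smallest that its 400 relabellings allow.

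*Acadm*, the medium-chain dehydrogenase (ENSMUSG00000062908, chr3:153922357-153944632, minus strand), had normalized counts of 4734, 4106 and 4141 in WT PC and of 4919, 6399 and 6276 in WT VM. The WT PC libraries lay below all WT VM libraries, though replicate 1 of each came close. In the KO the counts were 4843, 5605 and 4719 in PC and 5551, 6466 and 5522 in VM, and the ranges overlapped. The log2 fold change was -0.47 in the WT (SE 0.20, edgeR adjusted p = 0.778), -0.21 in the KO (SE 0.13, adjusted p = 0.684) and -0.32 over both (SE 0.11, interval -0.57 to -0.08, edgeR adjusted p = 0.220).

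*Acadvl*, the very long-chain dehydrogenase of the inner membrane (ENSMUSG00000018574, chr11:70010183-70015411, minus strand), had normalized counts of 349, 230 and 236 in WT PC and of 352, 396 and 368 in WT VM. In the KO it had 362, 422 and 332 in PC and 505, 412 and 387 in VM. The groups did not overlap in the WT, where WT PC replicate 1 was within 4 normalized counts of a VM library, and overlapped in the KO. Over both genotypes the log2 fold change was -0.34 (SE 0.15, edgeR adjusted p = 0.391).

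*Cpt2* (ENSMUSG00000028607, chr4:107903981-107923610, minus strand), the inner membrane transferase, had normalized counts of 1079, 750 and 681 in WT PC and 1113, 1244 and 928 in WT VM. In the KO they were 835, 1078 and 1033 in PC and 1244, 1091 and 1169 in VM. The groups overlapped in the WT and not in the KO. The log2 fold change over both genotypes was -0.32 (SE 0.14, edgeR adjusted p = 0.398).

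*Acadl* and *Hadha* differed less between the cell types. *Acadl*, the long-chain dehydrogenase (ENSMUSG00000026003, chr1:66830839-66863277, minus strand), was at 3862, 4383 and 3487 in WT PC and 4086, 4178 and 4056 in WT VM, and at 3964, 3914 and 3962 in KO PC and 4428, 4656 and 4620 in KO VM. Its KO PC libraries were all below the KO VM libraries, with a log2 fold change of -0.21 (SE 0.12, adjusted p = 0.636). *Hadha*, the alpha subunit with the hydratase and dehydrogenase activities, was at 6440, 5357 and 4965 in WT PC and 5555, 7181 and 6633 in WT VM, and at 5786, 6552 and 5745 in KO PC and 7120, 6905 and 6743 in KO VM. It too was lower in every KO PC than in every KO VM library, with a log2 fold change of -0.20 (SE 0.13, adjusted p = 0.681), and its WT groups overlapped.

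The genes of uptake and the liver form of the entry enzyme did not separate the cell types. *Cd36* (ENSMUSG00000002944, chr5:17781690-17888801, minus strand) was at 6467, 10314.5 and 6110 in WT PC and 6978, 8316 and 8585 in WT VM, and at 7113, 8047 and 6092 in KO PC and 7237, 8582 and 9342 in KO VM. WT PC replicate 2, the library that stood apart, held the highest value of the 12. The log2 fold change of *Cd36* over both genotypes was -0.15 (SE 0.14, interval -0.46 to 0.15). In fits without 1 library it ran from -0.29 to -0.08. *Fabp3* (ENSMUSG00000028773, chr4:130308595-130315463, plus strand) was at 3059, 2302 and 2431 in WT PC and 2620, 3434 and 2858 in WT VM, and at 3322, 3391 and 2674 in KO PC and 3845, 3142 and 3256 in KO VM. Its groups overlapped in both genotypes, and the log2 fold change was -0.16 (SE 0.13, interval -0.43 to 0.11). *Cpt1a* (ENSMUSG00000024900, chr19:3322334-3385733, plus strand) was at 137, 92.4 and 250.3 in WT PC, 137, 172 and 262 in WT VM, 238, 109 and 218 in KO PC and 179, 144 and 152 in KO VM. It had a log2 fold change of 0.01 over both genotypes (SE 0.26, interval -0.53 to 0.55). The intervals of *Cd36* and *Cpt1a* hold a difference of the size seen for *Hadhb*, and that of *Fabp3* ends close to it. A difference of about that size was thus not excluded for any of these genes at this depth and number of libraries.

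Every PC library lay below every VM library for 3 of the 9 genes in the WT (*Acadm*, *Acadvl* and *Hadhb*), against 7.72% of the 8352 genes with a mean normalized count over 20, and for 4 of 9 in the KO (*Cpt2*, *Acadl*, *Hadha* and *Hadhb*), against 7.88%. The exact permutation test of 3 libraries against 3 gave p = 0.1 for each of these, which is the smallest it can give. Libraries of PCs and VMs with the same replicate number had lower PC values in 6 of 6 for *Cpt2*, *Acadm* and *Hadhb*, in 5 of 6 for *Cd36*, *Acadl*, *Acadvl* and *Hadha*, and in 4 of 6 for *Fabp3* and *Cpt1a*. The replicate numbers were not taken as pairing the libraries. No share of all genes was computed for these counts, which are a description. The exact permutation within genotype, two-sided and unadjusted over the 9 genes, gave p = 0.015 for *Acadm*, 0.025 for *Acadl* and *Hadha*, 0.03 for *Acadvl*, 0.04 for *Cpt2*, 0.165 for *Fabp3*, 0.27 for *Cd36* and 0.815 for *Cpt1a*.

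**Figure D2:**
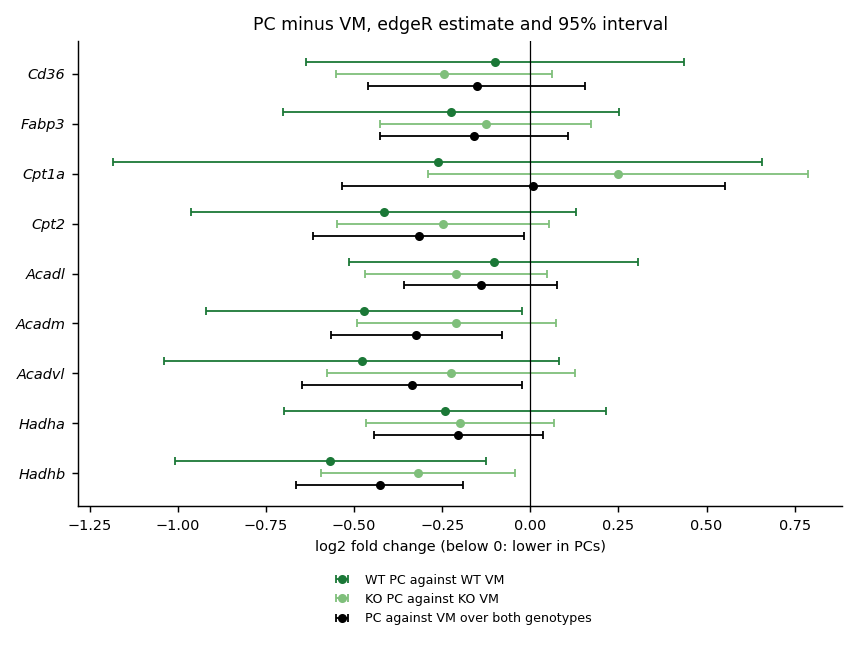
Log2 fold change of PCs over VMs (horizontal axis) for the 9 tested genes in the WT, in the KO and over both genotypes, with the edgeR estimate as a point and its 95% interval as a bar. The intervals over both genotypes lie below 0 for *Cpt2*, *Acadm*, *Acadvl* and *Hadhb* and cross it for the other 5; none of the 9 passed the adjusted threshold.

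Taken as 1 quantity, the 10 genes held 0.892% ± 0.049 of the counts outside the mitochondrial genome in WT PC, 0.996% ± 0.093 in KO PC, 1.03% ± 0.11 in WT VM and 1.09% ± 0.03 in KO VM (SD, n = 3). The single WT PC libraries were at 0.916%, 0.923% and 0.836% and the WT VM libraries at 0.902%, 1.11% and 1.07%, so the lowest VM library lay within the range of the PCs. The KO PC libraries were at 0.996%, 1.09% and 0.903% and the KO VM libraries at 1.06%, 1.11% and 1.09%, again with overlap. In bulk samples fewer cells of a type and less RNA of a gene per cell cannot be told apart.

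Markers of other cell types moved with the comparison of PCs and VMs. The summed normalized count of 7 endothelial markers was 755 to 853 in WT PC and 538 to 1732 in KO PC, against 278 to 563 in WT VM and 76.4 to 342 in KO VM. The 6 fibroblast markers summed to 777 to 1842 and 721 to 1062 in WT and KO PC, against 239 to 423 and 71.7 to 350 in WT and KO VM. The 6 macrophage markers summed to 277 to 656 and 265 to 299 in the PCs, against 53.8 to 144 and 10.9 to 80.7 in the VMs, and the 6 smooth muscle and pericyte markers to 1226 to 1522 and 1089 to 2679, against 518 to 1066 and 271 to 747. Over both genotypes 7 of 7 endothelial, 6 of 6 fibroblast, 4 of 4 tested macrophage and 4 of 6 smooth muscle and pericyte markers were higher in PCs at an unadjusted p under 0.05, and 2, 4, 1 and 3 of them at an adjusted p under 0.05, or 5, 5, 4 and 3 without WT PC replicate 2. The macrophage marker *Adgre1* was at 0 in all KO VM libraries and *C1qa* at 0 to 6 counts in all 12. Among 8 cardiomyocyte markers, 6 were lower and 2 higher in PCs, with a median log2 fold change of -0.13, and *Ryr2* and *Atp2a2* were lower at an unadjusted p under 0.05. Without WT PC replicate 2 *Atp2a2* was called lower (-0.40, SE 0.11, edgeR adjusted p = 0.0395). The summed cardiomyocyte markers were at 405544 to 697555 in WT PC, 527283 to 719076 in KO PC, 634226 to 778967 in WT VM and 649706 to 737581 in KO VM. The part of these other transcripts in the lower levels of the fatty acid genes was not tested.

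**Figure D3:**
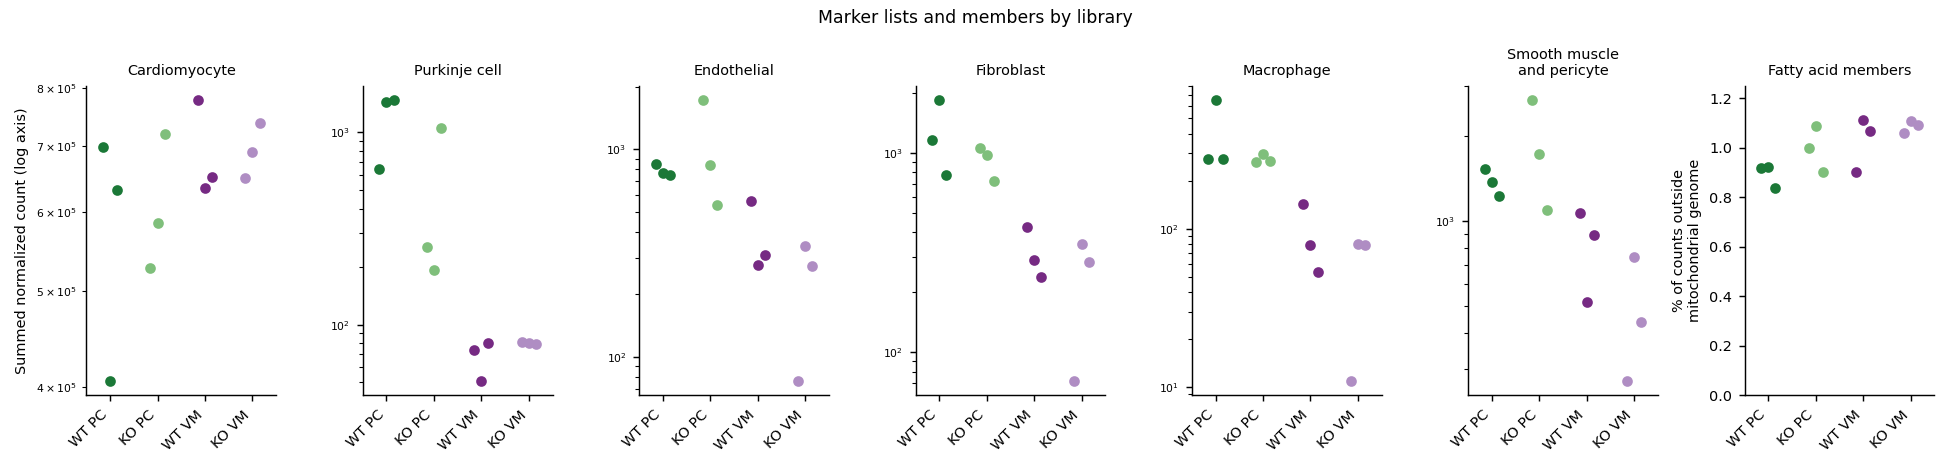
Summed normalized counts of 6 marker lists (log axis) and, in the last panel, the share of counts outside the mitochondrial genome held by the 10 fatty acid genes (axis from 0), by group; points are libraries. In each genotype the endothelial, fibroblast, macrophage and smooth muscle and pericyte sums lie higher in the PC libraries than in the VM libraries, and the fatty acid genes tend lower with overlap.

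*Hadhb* was then set against *Hadha* within each library, a ratio that no scaling of the library can change. It was picked after the values had been seen and is given as a description. The ratio of *Hadhb* to *Hadha* counts was 0.564, 0.538 and 0.568 in the WT PC libraries, below all other 9 libraries. It was 0.669, 0.675 and 0.638 in KO PC, 0.760, 0.645 and 0.705 in WT VM and 0.674, 0.698 and 0.785 in KO VM. The group means were 0.557 ± 0.016, 0.661 ± 0.020, 0.704 ± 0.057 and 0.719 ± 0.059 in that order (SD, n = 3). The KO PC ratios thus lay between those of WT PC and the upper VM libraries, and overlapped those of the VMs. WT PC replicate 2 had the lowest ratio, and the other 2 WT PC libraries were still below the remaining 9. The products of the 2 genes are needed in equal number in the complex, but transcript ratios from counts also hold differences in length and in mapping of the genes.

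**Figure D4:**
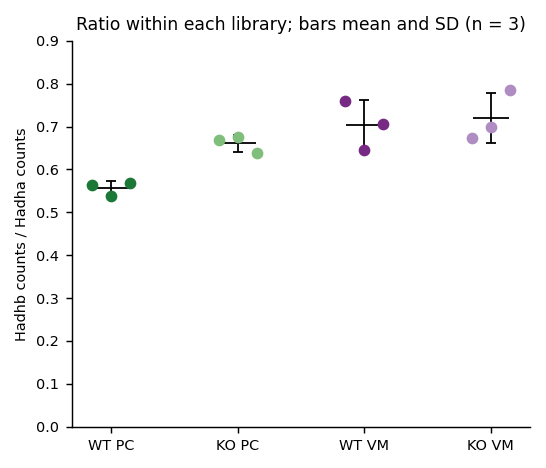
Ratio of *Hadhb* to *Hadha* counts within each library (vertical axis, from 0) by group; points are libraries and bars the mean and SD of 3. The 3 WT PC libraries sit between 0.538 and 0.568, below the 9 others, which run from 0.638 to 0.785.

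The next question was what loss of *Ncam-1* did to these transcripts in PCs. In KO PC against WT PC 8 of the 9 had higher fitted levels in the KO, with a median log2 fold change of 0.22 against -0.0006 over 12093 genes, and none was called. edgeR called 0 genes in all (0%), and DESeq2 and limma voom called 0 of the 9 too. At an unadjusted edgeR p under 0.05 there were 0 of the 9, against 394 of all genes (3.26%). Without WT PC replicate 1 there was 1 of the 9, against 885 of all genes. The largest differences were those of *Acadvl* at 0.45 (SE 0.27, interval -0.15 to 1.05, adjusted p = 0.995) and *Hadhb* at 0.36 (SE 0.21, interval -0.12 to 0.83, adjusted p = 0.995). The lowest KO PC library for *Hadhb* (3668) was just above the highest WT PC library (3632), the 1 gene of the 9 without overlap, against 4.86% of all genes. *Cd36* was the gene with a lower fitted level in the KO, at -0.10 (SE 0.25), and turned to 0.16 without WT PC replicate 2. The intervals reached from a loss to a gain for each of the 9, so that a change of the size of these estimates was not detectable with 3 libraries a group.

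In KO VM against WT VM 7 of the 9 were higher in the KO, with a median log2 fold change of 0.09 against -0.02 over 10780 genes. The median was 0.18 without WT VM replicate 2 and 0.16 without KO VM replicate 2. edgeR called 0 of the 9, against 0.0371% of all genes, and DESeq2 and limma voom called 0 as well. At an unadjusted edgeR p under 0.05 there were 0 of the 9, against 554 of all genes (5.14%). Without WT VM replicate 1 there was 1 of the 9, against 549 of all genes. *Acadl* and *Hadhb* were higher in every KO VM than in every WT VM library, 2 of 9 against 4.66% of all genes, with log2 fold changes of 0.15 (SE 0.12, interval -0.10 to 0.40) and 0.13 (SE 0.12, interval -0.13 to 0.39). *Cpt1a* had the largest estimate, -0.28 (SE 0.23, interval -0.76 to 0.19). The exact permutation test gave p = 0.1, its smallest, for *Acadl* and *Hadhb* in VMs and for *Hadhb* in PCs, and 0.2 or more for all others in the KO comparisons. Erythroid markers were high in single WT libraries, at 5.57 to 16.2 summed normalized counts in KO PC against 10.2 to 3489 in WT PC and at 1.56 to 10.2 in KO VM against 8.97 to 155 in WT VM. The Purkinje markers summed to 644 to 1477 normalized counts in WT PC and 192 to 1055 in KO PC. In VMs *Ryr2* and *Atp2a2* were the cardiomyocyte markers under an unadjusted edgeR p of 0.05. They were at 0.48 (SE 0.16, edgeR adjusted p = 0.916) and 0.40 (SE 0.12, edgeR adjusted p = 0.707) in KO over WT. The sums of all 8 cardiomyocyte markers overlapped, at 634226 to 778967 normalized counts in WT VM and 649706 to 737581 in KO VM. Whether any of these had a part in the differences of the fatty acid genes was not tested.

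The difference between the *Ncam-1* effects in the cell types was tested in 1 fit of all 12 libraries. No gene was called (0% of 11533), none of the 9 was under an unadjusted p of 0.05, where 2.95% of all genes were, and DESeq2 and limma voom called 0 of the 9. The estimates ran from -0.18 for *Cd36* (SE 0.29) to 0.48 for *Cpt1a* (SE 0.51), with a median of 0.14 against 0.02 over all genes, and that of *Hadhb* was 0.22 (SE 0.22, interval -0.26 to 0.69, adjusted p = 0.999). That median was 0.30 without WT PC replicate 1 and 0.02 without WT PC replicate 3.

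**Figure D5:**
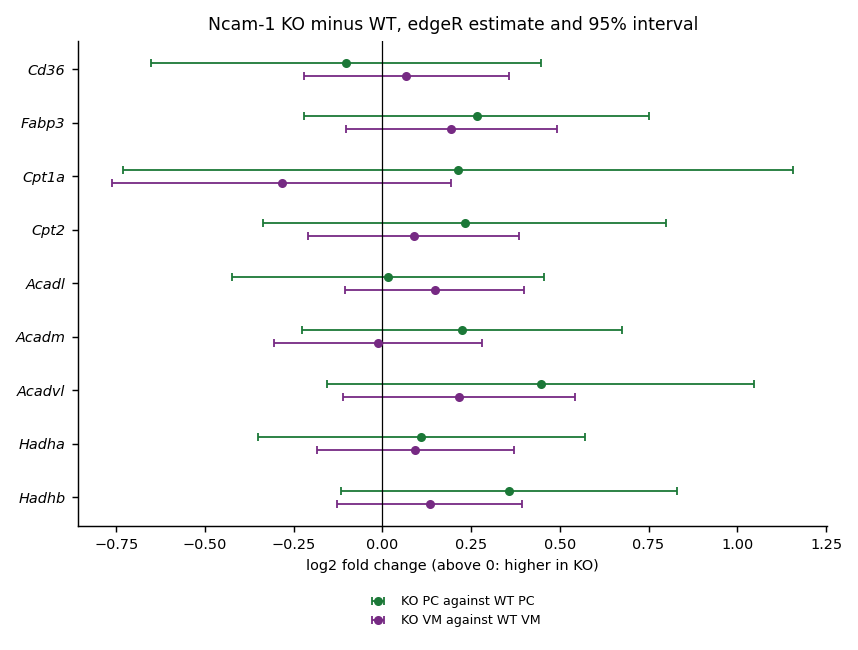
Log2 fold change of *Ncam-1* KO over WT (horizontal axis) in PCs and in VMs for the 9 tested genes, with the edgeR estimate as a point and its 95% interval as a bar. All 18 intervals cross 0.

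The rest of the pathway was described by lists of genes. Of 12 other beta-oxidation genes, 11 had lower fitted levels in PCs over both genotypes, with a median log2 fold change of -0.24, and none was called after adjustment. The 5 under an unadjusted p of 0.05 were all lower, and the 3 with the smallest p were *Hadh*, the short-chain hydroxyacyl-CoA dehydrogenase (-0.36, SE 0.11, adjusted p = 0.152), *Etfdh*, which passes electrons from the dehydrogenases to ubiquinone (-0.37, SE 0.12, adjusted p = 0.156), and *Decr1*, needed for unsaturated chains (-0.36, SE 0.15, adjusted p = 0.353). In the WT 10 of 12 were lower, led by *Decr1* (-0.68, SE 0.21, adjusted p = 0.609), and in the KO 11 of 12, with *Hadh* the 1 gene under an unadjusted p of 0.05 (-0.41, SE 0.13, adjusted p = 0.223). Without WT PC replicate 2, 12 of 12 were lower over both genotypes, with 6 under an unadjusted p of 0.05. Between genotypes 6 of 12 were higher in KO PC (median 0.01), or 9 of 12 without WT PC replicate 2 (median 0.16), and 8 of 12 in KO VM (median 0.02), where *Etfb*, a subunit of the electron carrier that serves the dehydrogenases, was the only one under an unadjusted p of 0.05 (0.61, SE 0.18, adjusted p = 0.707).

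Of 14 further genes of uptake and activation, 12 were tested over both genotypes, with 7 higher and 5 lower in PCs (median log2 fold change 0.19). Without WT PC replicate 2, 8 of 13 were higher (median 0.23). *Fabp4*, a fatty acid binding protein of capillary endothelium, adipocytes and macrophages, was the 1 gene that passed with all libraries. Without WT PC replicate 2 *Gpihbp1*, which anchors lipoprotein lipase on capillary endothelium, passed as well (2.20, SE 0.53, edgeR adjusted p = 0.0221). *Fabp4* was higher in PCs, with a log2 fold change of 1.998 (SE 0.39, edgeR adjusted p = 0.0184) over both genotypes and of 2.23 (SE 0.45, edgeR adjusted p = 0.0253) in the KO, and of 1.71 in the WT (SE 0.43, adjusted p = 0.444). With all libraries *Gpihbp1* was at 2.38 over both genotypes (SE 0.57, adjusted p = 0.0528). *Vldlr*, a lipoprotein receptor, was at -0.49 (SE 0.15, adjusted p = 0.149). *Lpl*, the lipase itself, and *Acsl1*, the main acyl-CoA synthetase of heart, were at -0.27 (SE 0.12) and -0.35 (SE 0.14), with adjusted p of 0.392 and 0.322. *Fabp4* and *Gpihbp1* stand beside the endothelial markers given above, which were also higher in PCs. *Vldlr*, *Lpl* and *Acsl1* had lower fitted levels there. The synthetases *Acsl5* and *Acsl6* had higher fitted levels in PCs, at 1.88 (SE 0.66, adjusted p = 0.219) and 0.71 (SE 0.29, adjusted p = 0.353). *Acsl5* was low, with group means from 2.69 (KO VM) to 14.2 (KO PC) normalized counts. The 3 other genes of the carnitine shuttle and the 3 of malonyl-CoA control, the brake on the entry enzyme, were all lower in PCs over both genotypes, with medians of -0.12 and -0.23, and none was under an unadjusted p of 0.05. Without WT PC replicate 2 only 2 of the 3 shuttle genes were lower (median -0.032), with the carnitine-acylcarnitine carrier *Slc25a20* under an unadjusted p of 0.05 (-0.36, SE 0.12, edgeR adjusted p = 0.108), and the malonyl-CoA genes had a median of -0.14.

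Among 9 transcriptional regulators of the pathway, including *Ppara*, *Ppargc1a* and *Esrra*, 6 were lower in PCs over both genotypes, with a median of -0.12, and none was under an unadjusted p of 0.05. In VMs *Rxra*, the partner of the PPAR receptors, was at 0.50 in KO over WT (SE 0.20, adjusted p = 0.929). Of 10 further PPAR targets 6 were lower in PCs, with a median of -0.07, and *Ucp2*, an uncoupling protein also found in immune cells, was at 0.88 (SE 0.26, adjusted p = 0.114). Without WT PC replicate 2, 9 of the 10 were lower (median -0.20) and *Ucp2*, at 0.95 (SE 0.23, edgeR adjusted p = 0.0250), was higher in PCs. The median of this list in the KO PC against WT PC comparison was -0.31, with 3 of 10 higher, and turned to 0.16, with 7 of 10 higher, without WT PC replicate 2. Of 6 genes of the triglyceride store 4 were lower in PCs, and *Mgll*, the monoglyceride lipase, was at 0.54 (SE 0.25, adjusted p = 0.423). Of 7 peroxisomal genes 6 were lower, and *Ehhadh*, the peroxisomal bifunctional enzyme, was at -0.81 (SE 0.25, adjusted p = 0.152). Without WT PC replicate 2, 5 of the 9 regulators (median -0.040), 5 of the 6 triglyceride genes (median -0.031) and 7 of the 7 peroxisomal genes (median -0.20) were lower, with none called.

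Genes of glucose use, the other fuel route, were split in the WT, with 11 of 20 lower in PCs (median log2 fold change -0.08). Of the same 20 genes of glucose uptake, glycolysis and pyruvate oxidation 13 were lower in PCs over both genotypes, with a median log2 fold change of -0.13, or 16 without WT PC replicate 2 (median -0.11), and none was called. The 3 under an unadjusted p of 0.05 were all lower. They were *Pdhb* (-0.34, SE 0.12, adjusted p = 0.203) and *Pdha1* (-0.30, SE 0.11, adjusted p = 0.222), subunits of pyruvate dehydrogenase, and *Hk2*, a hexokinase (-0.40, SE 0.14, adjusted p = 0.222). In the KO 19 of the 20 were lower in PCs (median -0.20), and in VMs 17 of 20 were higher in the KO (median 0.12), with none called in either comparison. The median of the fatty acid genes over both genotypes (-0.20) stands beside -0.13 for this list and -0.13 for the cardiomyocyte markers. Without WT PC replicate 2 it was -0.28 for the fatty acid genes, beside -0.11 for the glucose list. A difference between the lists was not tested.

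The other list genes with the smallest unadjusted p under 0.05 in a comparison did not pass the adjustment. In WT PC against WT VM these were *Acsl6*, a synthetase (1.53, SE 0.40), *Gpihbp1* (2.08, SE 0.58), *Etfa* (-0.57, SE 0.19) and *Etfdh* (-0.51, SE 0.21), *Ehhadh* (-0.96, SE 0.42), the peroxisomal thiolase *Acaa1a* (1.56, SE 0.67), the hexokinase *Hk1* (0.66, SE 0.26) and *Pdhb* (-0.45, SE 0.19), with log2 fold changes throughout. In KO PC against KO VM they were *Ucp2* (1.004, SE 0.30), *Ehhadh* (-0.68, SE 0.31) and the muscle enolase *Eno3* (-0.31, SE 0.14). In KO PC against WT PC they were *Acsl6* (-1.37, SE 0.51) and *Acaa1a* (-1.63, SE 0.65), and *Acaa1a* ran from 77.3 to 557 normalized counts among the 3 WT PC libraries. In KO VM against WT VM they were, beside *Etfb* and *Rxra*, *Lpl* (0.27, SE 0.13), the pyruvate dehydrogenase kinase *Pdk4* (-0.61, SE 0.29), the glucose transporter *Slc2a4* (0.37, SE 0.16) and *Hk1* (0.53, SE 0.21). For the interaction they were *Acsl6* (-1.70, SE 0.59), *Etfa* (0.55, SE 0.24), *Etfb* (-1.47, SE 0.67), *Rxra* (-0.73, SE 0.34) and *Acaa1a* (-1.81, SE 0.77).

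Some of the 9 genes also varied together from library to library. Over the 36 pairs the median Pearson correlation of log2 levels across the 12 libraries was 0.54, with a range from -0.50 to 0.91, and after centring each group it was 0.17. The centred median with the other 8 was highest for *Hadha* (0.72), and was 0.03 for *Cd36*, 0.02 for *Acadl* and -0.25 for *Cpt1a*. The points share library scaling and depth, so the values are a description. *Hadha*, *Acadvl* and *Hadhb* had the highest median correlation with the other 8, at 0.83, 0.82 and 0.79, and *Cd36* and *Cpt1a* the lowest, at 0.19 and -0.03. The mean standardized log2 level of the 9 genes was lowest in WT PC replicates 3 and 2 (-1.38 and -0.98) and was 0.69 to 0.82 in the KO VM libraries and -0.30 to 0.71 in the WT VM libraries. Of 8343 other genes with a mean normalized count over 20, the 10 whose levels followed this mean most closely across the 12 libraries were *Pdha1* (r = 0.94), *Etfdh* (0.93), *Sdha* (0.92), *Aldh6a1* (0.91), *Atp2a2* (0.91), *Coq3* (0.89), *Strip2* (0.88), *Yipf7* (0.88), *Ckmt2* (0.88) and *Gja1* (0.88). *Pdha1*, *Etfdh*, *Sdha*, *Aldh6a1*, *Coq3* and *Ckmt2* encode mitochondrial proteins, *Atp2a2* the calcium pump of the sarcoplasmic reticulum and *Gja1* the main gap junction protein of working myocytes.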

How the data were processed

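Read pairs were 50 bp paired-end, from low-input libraries of sorted cells, 3 per group. The authors aligned them with STAR 2.5.0c to mm10 and made the deposited raw counts per gene with HTSeq 0.6.0 and an annotation named as GRCm38.74, a release that could not be checked here; no value was normalized, and the setting for strand is not given in the sources used here. Rows that name no gene (40.0% to 73.6% of pairs) were left out of library sizes and tests. Of 48526 gene identifiers 48144 were found in GENCODE M21. No 2 libraries of a group agreed within sampling noise.

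Counts were scaled by TMM and tested with edgeR 4.0.16 (quasi-likelihood, R 4.3.3), on genes with a mean normalized count above 5, in fits of only the 6 libraries of a comparison; the mean over both genotypes and the interaction used all 12. Adjusted p is Benjamini-Hochberg over all genes tested, at 0.05. DESeq2 1.42.0, limma 3.58.1 voom, other scalings and filters, a replicate block and the omission of each library were alternatives. Exact permutation tests used log2(normalized count + 2) with SciPy. The main edgeR fit was run on simulated counts for WT PC against WT VM and for PC against VM over both genotypes. The simulation gave every gene the same dispersion, and changes larger than those fitted for the members. The other tests and comparisons were not checked in this way. All 10 members were named. From pathway lists, each gene at an adjusted p under 0.05 was named, or else up to 3 with the smallest p under 0.05. In addition *Vldlr*, *Acsl1* and *Acsl5*, and the values of *Gpihbp1*, *Lpl* and *Acsl6* over both genotypes, were added after their values were seen. The members and lists were chosen with earlier results of these data known.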

Additional observations from a re-analysis of the deposited data

How the results depend on the processing

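No member was called in any of the 6 comparisons under any alternative except in PC against VM over both genotypes, where 1 member (*Hadhb*) was called with the DESeq2 Wald test, with limma voom, and in 2 of the 12 fits without 1 library (range 0 to 1). The median log2 fold change of the members without 1 library ran from -0.39 to -0.25 in WT PC against WT VM (-0.39 without WT VM replicate 1) and from 0.0206 to 0.30 for the interaction, and kept its sign in all comparisons and alternatives. In a fit with the replicate block *Hadhb* was at -0.43 over both genotypes (adjusted p = 0.106) and no member was called; the block moved the count of all genes called from 13 to 4 in the WT, from 94 to 115 in the KO and from 171 to 124 over both. Same-numbered PC and VM libraries correlated at 0.21, 0.08 and 0.14 in the WT and at -0.02, 0.12 and 0.02 in the KO. Every WT library correlated best with its own number and not every KO library did, so the numbers were not taken as pairing the libraries, and whether they share hearts is not known.

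Single members changed sign, *Cpt1a* also from estimates of -0.26 (WT PC against WT VM) and -0.28 (KO VM against WT VM), and the cause was not tested. With voom, *Cpt1a* went to 0.0154 in WT PC against WT VM and to -0.20 in KO PC against WT PC, and *Cd36* to 0.14 in KO PC against WT PC and 0.0425 for the interaction. *Cpt1a* over both genotypes went to -0.018 without mitochondrial genes in the library size and to -0.0635 with the replicate block. With DESeq2 and with its size factors in edgeR, *Acadl* in KO PC against WT PC went to -0.0154 and -0.0149, *Acadm* in KO VM against WT VM to 0.00667 and 0.00762, and *Hadha* for the interaction to -0.0195 and -0.0181. Without 1 library, *Cd36* ran from -0.36 to 0.0438 and *Cpt1a* from -0.74 to 0.0424 in WT PC against WT VM, and *Cpt1a* from -0.23 to 0.16 over both genotypes. In KO PC against WT PC, *Acadl* ran from -0.0562 to 0.0902, *Cd36* from -0.23 to 0.16 and *Cpt1a* from -0.0527 to 0.69. In KO VM against WT VM, *Acadm* ran from -0.13 to 0.0735, *Cd36* from -0.0279 to 0.16, *Hadha* from -0.0127 to 0.20, *Cpt1a* from -0.48 to 0.0359 and *Cpt2* from -0.00856 to 0.21. For the interaction, *Hadha* ran from -0.0745 to 0.13, *Cd36* from -0.32 to 0.10 and *Fabp3* from -0.0503 to 0.20.

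Counts of all genes called moved by over 1.5 times between edgeR and DESeq2 in WT PC against WT VM (13 and 116), over both genotypes (171 and 459), in KO VM against WT VM (4 and 10) and in KO PC against WT PC (0 and 7). Without the filter on low counts edgeR called 297 genes between PCs and VMs in the WT, 326 in the KO and 561 over both, 132 and 47 between genotypes in PCs and in VMs, and 19 for the interaction. With limma voom, 131 were called between PCs and VMs in the WT and 477 over both. In 1 fit of all 12 libraries the cell types gave 38 in the WT and 1 in the KO, and the genotypes 3 in PCs and 1 in VMs. Without 1 library, the counts between PCs and VMs ran from 1 to 108 in the WT, 19 to 150 in the KO and 56 to 425 over both, those between genotypes from 0 to 4 in PCs and 2 to 10 in VMs, and that for the interaction was 0. The share of counts taken by the mitochondrial genome leaves 1532393 to 6761356 pairs a library for all other genes, and *Cpt1a*, at 43 to 393 counts, is the tested member with the least.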
